A study of Caenorhabditis elegans with 6 samples.

Results

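Argonaute proteins hold a short guide RNA and use it to find transcripts that match the guide. In the worm germ line several classes of guide divide this work. PRG-1 carries piRNAs, ERGO-1 and the pair ALG-3 and ALG-4 carry 26G-RNAs, and WAGO-1, WAGO-4, HRDE-1 and CSR-1 carry 22G-RNAs that are copied from target transcripts. RDE-1 starts RNA interference against foreign double-stranded RNA, and ALG-5 is a microRNA Argonaute of the germ line. A hermaphrodite makes sperm as a larva and then turns to making oocytes for its adult life. ALG-3 and ALG-4 are known from spermatogenesis and ERGO-1 from oocytes and embryos.

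The transcripts of these 10 Argonaute genes were followed in whole Caenorhabditis elegans, in aged animals (day 10) and in L4 larvae, which are 1 moult short of adulthood. They are prg-1, hrde-1, csr-1, wago-1, wago-4, ergo-1, rde-1, alg-3, alg-4 and alg-5. Each was matched by symbol to 1 WormBase identifier in the WBcel235 annotation, all 10 were among the 46940 features of the deposited count table, and all 10 passed the filter on low counts. There were 3 libraries per age, all from untreated animals of the wild-type N2 Bristol strain kept at 20 °C, with 23257607 to 25616846 counts per day 10 library and 19576201 to 23972794 per L4 library. The labels do not say from which event day 10 is counted, and with no young adults, becoming adult and growing old cannot be told apart. The labels do not say whether the 3 libraries of an age stem from different cultures, and the p-values below therefore reflect library-to-library spread that may be technical. In whole animals, more cells of a type and more RNA per cell cannot be told apart either.

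Relative to the scaled library total, transcripts of 8 of the 10 genes were higher in day 10 animals than in L4 larvae, and those of the other 2 far lower. Such values do not give the amount of transcript per animal. The rises ran from 1.24-fold for csr-1 to 6.64-fold for ergo-1. The falls were 32.5-fold for alg-3 and 35.3-fold for alg-4. All 10 were called by edgeR's quasi-likelihood test (Benjamini-Hochberg adjusted p under 0.05), and for all 10 every library of one age lay on the same side of every library of the other. Over the 15956 genes tested, however, 85.4% passed, with 40.5% higher and 45% lower at day 10, and the libraries of 87.6% did not overlap. That all members passed is therefore near the background. Without day 10 replicate 3, which lay farthest from its group, again 8 rose and 2 fell. With upper-quartile factors in place of TMM scaling, csr-1 was lower at day 10 instead, and 7 rose and 3 fell.

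**Figure D1:**
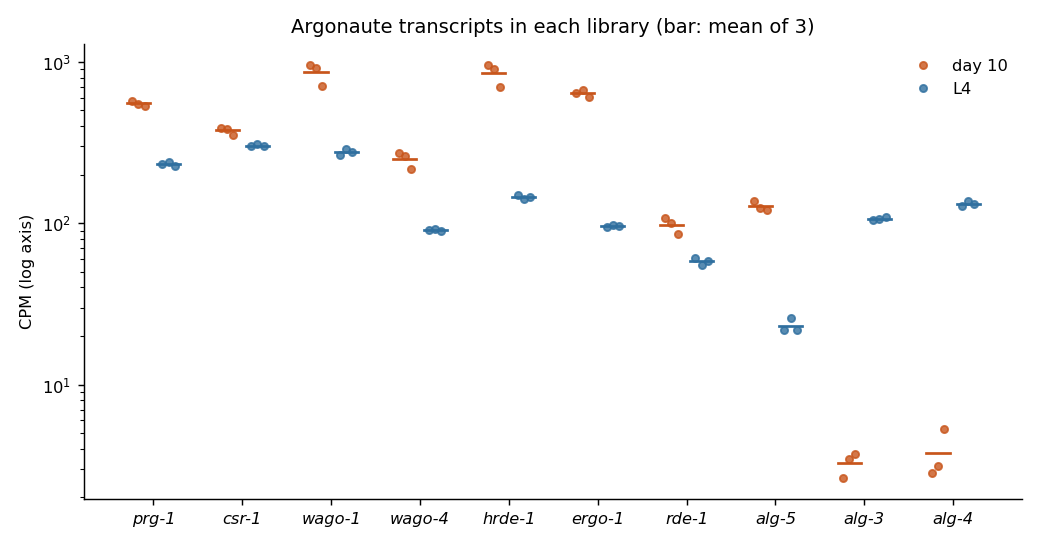
Level of each Argonaute transcript in CPM (counts scaled to a common library total, log axis) in 3 day 10 and 3 L4 libraries, with points for libraries and bars for means. At day 10 alg-3 and alg-4 lay between 2.63 and 5.29 CPM, against 104.7 to 137.5 CPM in L4, while the other 8 genes lay higher at day 10.

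The spermatogenesis pair fell together. The gene alg-3 (WBGene00011910, IV, 11704246 to 11708264) had 66, 86 and 91 counts in the day 10 libraries, against 2064, 2478 and 2164 in the L4 libraries. On the CPM scale these are 2.63, 3.47 and 3.73 at day 10, against 104.7, 105.7 and 108.8 in L4. Its log2 fold change was −5.02 ± 0.13 (SE, n = 3 per age; adjusted p = 2.95e-09). The L4 libraries lay close together, and the day 10 libraries spread further, with a coefficient of variation of 17.6% at day 10 and 2.01% in L4.

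Its partner alg-4 (WBGene00006449, III, 9887209 to 9891424) had 71, 78 and 129 counts at day 10, against 2531, 3223 and 2616 in L4. These correspond to 2.82, 3.15 and 5.29 CPM at day 10, against 128.4, 137.5 and 131.6 CPM in L4, a log2 fold change of −5.14 ± 0.25 (adjusted p = 1.83e-07). Day 10 replicate 3 was the highest of its age for both genes. ALG-3 and ALG-4 are close paralogues with annotated proteins of up to 1035 and 1040 residues, so reads from shared stretches may have been split or dropped in counting. The log2 ratio of alg-4 to alg-3 counts was 0.11, −0.14 and 0.50 at day 10, against 0.29, 0.38 and 0.27 in L4, so the balance between them overlapped between the ages.

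Both falls lay within the range of those of the sperm markers and were larger than their median. All 20 listed genes of spermatogenesis were lower at day 10, with log2 fold changes from −5.60 to −0.61 and a median of −4.41. Of all genes tested 45% were lower, and their median was −0.16. A larger fall than that of alg-4 was seen for 4 of the 20 and than that of alg-3 for 5. The major sperm protein gene msp-36 averaged 4.42 ± 0.90 CPM at day 10 and 187 ± 0.97 in L4, and the sperm phosphatase gene gsp-3 averaged 2.76 ± 1.2 and 105 ± 1.4 CPM (SD, n = 3 each). Of the list, spe-44, a transcription factor that switches on sperm genes, changed least, at 18.5 ± 0.74 CPM at day 10 and 28.3 ± 1.04 in L4 (log2 fold change −0.61, adjusted p = 0.00018; chosen after its values were seen). Summed over the list, sperm markers stood at 52.4 to 66.1 CPM at day 10 and 787 to 800 CPM in L4, with none of the 20 at 0 counts throughout an age. The part of sperm content in the falls of alg-3 and alg-4 was not tested.

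The piRNA Argonaute rose by a moderate amount. For prg-1 (WBGene00004178, I, 7585329 to 7588367) the day 10 libraries held 572, 551 and 535 CPM, against 234, 241 and 227 CPM in L4. The log2 fold change was 1.24 ± 0.04 (adjusted p = 6.19e-08). The coefficient of variation was small at both ages, 3.33% at day 10 and 2.87% in L4. It shares 12 exonic bases with D2030.12 on the other strand, a gene with at most 53 counts in any library.

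The 22G-RNA Argonautes rose unequally. The nuclear Argonaute hrde-1 (WBGene00007624, III, 4172337 to 4176159), which carries silencing from parent to progeny, held 961, 907 and 699.6 CPM at day 10, against 149, 142.2 and 145 CPM in L4. Its log2 fold change of 2.56 ± 0.14 (adjusted p = 1.35e-07) was the largest of the 4. Replicate 3 was the lowest day 10 library and still stood far above every L4 library.

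For wago-1 (WBGene00011061, I, 7235384 to 7238792), a cytoplasmic Argonaute of perinuclear germ granules, the day 10 libraries held 951, 919.7 and 714 CPM and the L4 libraries 266, 289 and 277 CPM. The log2 fold change was 1.63 ± 0.14 (adjusted p = 1.13e-06). The gene wago-4 (WBGene00010263, II, 12919551 to 12923377), which acts in the inheritance of RNA interference, held 274, 261 and 218 CPM at day 10, against 90.9, 91.5 and 89.5 CPM in L4 (log2 fold change 1.47 ± 0.10, adjusted p = 3.7e-07). Both shared with hrde-1 the dip in day 10 replicate 3.

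The essential Argonaute csr-1 (WBGene00017641, IV, 7957267 to 7962157), whose guides match genes expressed in the germ line, changed least of the 10. It held 389, 385 and 354 CPM at day 10, against 301, 308 and 299.7 CPM in L4, a log2 fold change of 0.31 ± 0.04 (adjusted p = 0.000624). The sign turned with upper-quartile factors in place of TMM scaling, to −0.14 (adjusted p = 0.0258). Counts per gene do not separate its 2 annotated coding forms, of 1030 and 867 residues. Its exons share 438 bases with frpr-10 on the same strand, a gene with 1 to 15 counts per library, and reads in that stretch may have been left out as ambiguous.

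The scalings also shifted the median of all genes. The median log2 fold change of all genes tested was −0.16 with TMM scaling, 0.00 with DESeq2's size factors, and it was −0.62 under upper-quartile scaling. The share of calls that were higher at day 10 was 47.4%, 50.5% and 38.7% in that order. The other 9 genes kept their direction and passed the test under all 3.

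Of the 26G-RNA Argonautes, ergo-1 moved opposite to the spermatogenesis pair. The gene ergo-1 (WBGene00019971, V, 1008803 to 1018352) held 637, 667 and 609 CPM at day 10, against 94.4, 97.9 and 95.9 CPM in L4. Its log2 fold change of 2.73 ± 0.04 (adjusted p = 1.73e-09) was the highest of the 10, and 7.94% of all genes tested rose more. Spread was small at both ages, and day 10 replicate 3 did not stand apart, lying 0.10 below the mean of the other two on the log2 scale. An exon stretch of 17 bases overlaps pei-2 on the other strand, a gene with 54 to 106 counts at day 10 and 384 to 480 in L4.

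The Argonaute of foreign double-stranded RNA, rde-1 (WBGene00004323, V, 9987916 to 9991642), rose to 107, 99.6 and 85.8 CPM at day 10, against 61.0, 54.9 and 58.1 CPM in L4. The log2 fold change was 0.75 ± 0.10 (adjusted p = 4.48e-05). The microRNA Argonaute alg-5 (WBGene00011945, I, 9989802 to 9993976) rose more, to 137, 125 and 120 CPM at day 10, against 21.8, 25.8 and 21.8 CPM in L4 (log2 fold change 2.46 ± 0.10, adjusted p = 2.44e-08). In L4 it was the lowest of the 10 genes. Its exons share 71 bases with the other-strand gene cfi-1, which had 27 to 51 counts at day 10 and 127 to 174 in L4.

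None of the 10 genes lies on the X chromosome, which holds 13.9% of the genes tested that have a place in the annotation. The authors' deposited table gave all 10 an adjusted p under 0.05 by a test that the sources do not name. Its largest adjusted p among them was 6.88e-05, for csr-1.

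**Figure D2:**
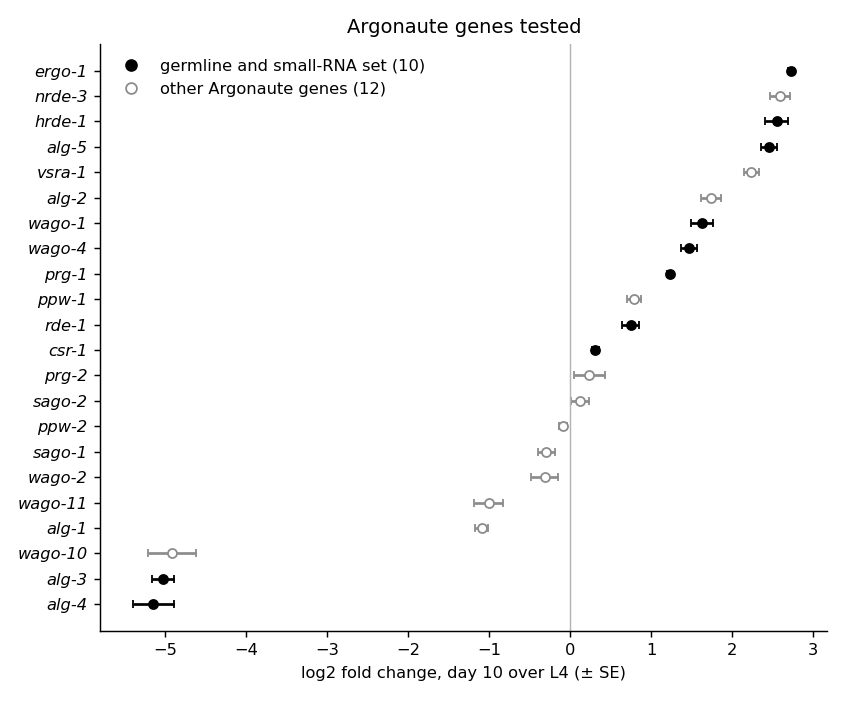
Log2 fold change, day 10 over L4, of the 10 Argonaute genes (filled) and of 12 other tested Argonaute genes (open), with bars for 1 SE. The genes alg-3, alg-4 and wago-10 lie together near −5, and ergo-1, nrde-3, hrde-1 and alg-5 lie at the upper end.

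The other Argonaute genes of the worm moved both ways. Of 13 looked for, 12 were tested, with 4 higher, 4 lower and 4 that did not pass, at a median log2 fold change of 0.02 where that of all genes was −0.16. Among all genes tested 40.5% were higher and 45% lower. The count of lower genes was 3 to 6 over the alternatives. By mean FPKM the highest were ppw-2, prg-2 and ppw-1. The gene ppw-2, also known as wago-3, averaged 211 ± 11.1 CPM at day 10 and 224 ± 5.19 in L4 (adjusted p = 0.193). The prg-1 relative prg-2, annotated as a pseudogene, averaged 172 ± 37.4 CPM at day 10 and 145 ± 1.65 in L4 (adjusted p = 0.162), and reads shared with prg-1 make it uncertain. Without day 10 replicate 3, prg-2 passed as higher (log2 fold change 0.43, adjusted p = 6.15e-06), as it did with DESeq2's size factors (adjusted p = 0.0392) and DESeq2's own test (adjusted p = 0.0289). With upper-quartile factors ppw-2 passed as lower (log2 fold change −0.53, adjusted p = 1.32e-05). The gene ppw-1, needed for germ line RNA interference, rose by a log2 fold change of 0.79 ± 0.08.

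The genes that follow were chosen after their values were seen. Besides ppw-1, those that rose were nrde-3, a nuclear Argonaute of somatic cells (2.60 ± 0.12), vsra-1 (2.24 ± 0.09) and the microRNA Argonaute alg-2 (1.74 ± 0.12). Those that fell were wago-10, the other main microRNA Argonaute alg-1 (−1.09 ± 0.08), wago-11 (−1.0 ± 0.18) and sago-1 (−0.29 ± 0.11). Of these, wago-11 is annotated as a pseudogene and had low counts, 27 to 43 at day 10 and 53 to 72 in L4. The call of sago-1 was lost with DESeq2's size factors (adjusted p = 0.228) and with DESeq2's own test (adjusted p = 0.384), and the authors' deposited table gave it an adjusted p of 0.463. Among those that did not pass was wago-2, also annotated as a pseudogene (log2 fold change −0.31, adjusted p = 0.0535). It passed as lower in 6 of 15 alternatives. The gene wago-10 (WBGene00020707, V, 343428 to 347640) had 30, 39 and 68 counts at day 10, against 961, 1442 and 1130 in L4. Its log2 fold change of −4.91 ± 0.30 (adjusted p = 6.11e-07) came next to those of alg-3 and alg-4, and it too was highest in replicate 3 at day 10.

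Levels of different genes can be compared per length, and the authors' FPKM values (counts per kilobase of gene, scaled to the library total) were used for this. At day 10 the order among the 10 was ergo-1 at 288 ± 6.99 FPKM, wago-1 at 282 ± 32.5, hrde-1 at 242 ± 30.9, prg-1 at 208 ± 4.11 and csr-1 at 115 ± 1.57. Neighbours among the first 4 overlapped, while on this scale every ergo-1 library lay above those of hrde-1 and prg-1, and every wago-1 library above those of prg-1. Below csr-1 followed wago-4 at 74.6 ± 6.08, alg-5 at 41.1 ± 1.88 and rde-1 at 30.4 ± 2.39 FPKM, each apart from its neighbours, and then alg-4 at 1.504 ± 0.60 and alg-3 at 1.02 ± 0.21, which overlapped.

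In L4 the order differed. There csr-1 led at 91.5 ± 0.50 FPKM, with wago-1 at 90.2 ± 2.49 and prg-1 at 87.1 ± 1.79, and neighbours among these overlapped. The spermatogenesis gene alg-4 came next at 52.1 ± 1.02, ahead of ergo-1 at 42.9 ± 0.18, hrde-1 at 40.9 ± 1.54 and alg-3 at 32.7 ± 0.83 FPKM. Last came wago-4 at 26.8 ± 0.35, rde-1 at 17.9 ± 1.21 and alg-5 at 7.40 ± 0.63 FPKM. From alg-4 down, no neighbours overlapped.

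The places of ergo-1, csr-1 and alg-4 rest on the lengths the authors used. Their values imply 2225 bases for ergo-1, against 3655 bases of merged exons in the annotation, and 2530 against 3463 for alg-4 and 3291 against 3668 for csr-1. With merged exon lengths ergo-1 averaged 175 ± 4.26 at day 10 and 26.1 ± 0.11 in L4 on the same scale, which put it below prg-1 at day 10 and below wago-4 in L4. In L4 csr-1 averaged 82.06 ± 0.45 with merged exons, below wago-1 at 90.28 ± 2.49 and prg-1 at 87.29 ± 1.79. Likewise alg-4 averaged 1.10 ± 0.44 at day 10 and 38.03 ± 0.75 in L4, which put it below hrde-1 in L4. The fold change of a gene between ages does not depend on the length chosen for it. Counts per gene do not separate the 4 annotated coding forms of ergo-1 (310 to 1121 residues) or the 3 of alg-4 (55 to 1040), whose use may differ between the ages.

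Summed over the 23 Argonaute genes, the FPKM were 1714, 1695 and 1568 at day 10, against 782.4, 782.3 and 778.3 in L4, 2.12-fold higher at day 10. The 6 listed housekeeping genes rose too, with a median log2 fold change of 1.00. An exact two-sided permutation test of the summed FPKM over the libraries gave p = 0.1, the smallest that 3 libraries against 3 allow. Since the 10 genes were chosen with these data known, this p lends the rise of the pool no support. Within this pool ergo-1 took 17.4% ± 0.95 at day 10 and 5.50% ± 0.03 in L4, and hrde-1 took 14.6% ± 1.2 and 5.24% ± 0.20. With merged exon lengths ergo-1 took 11.66% ± 0.70 at day 10 and 3.62% ± 0.02 in L4, which put it below hrde-1, at 16.04% ± 1.24 and 5.67% ± 0.21. The share of csr-1 was 6.91% ± 0.24 at day 10 and 11.7% ± 0.04 in L4. For alg-3 and alg-4 together it was 0.110%, 0.135% and 0.217% at day 10, against 10.7%, 10.9% and 10.99% in L4.

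**Figure D3:**
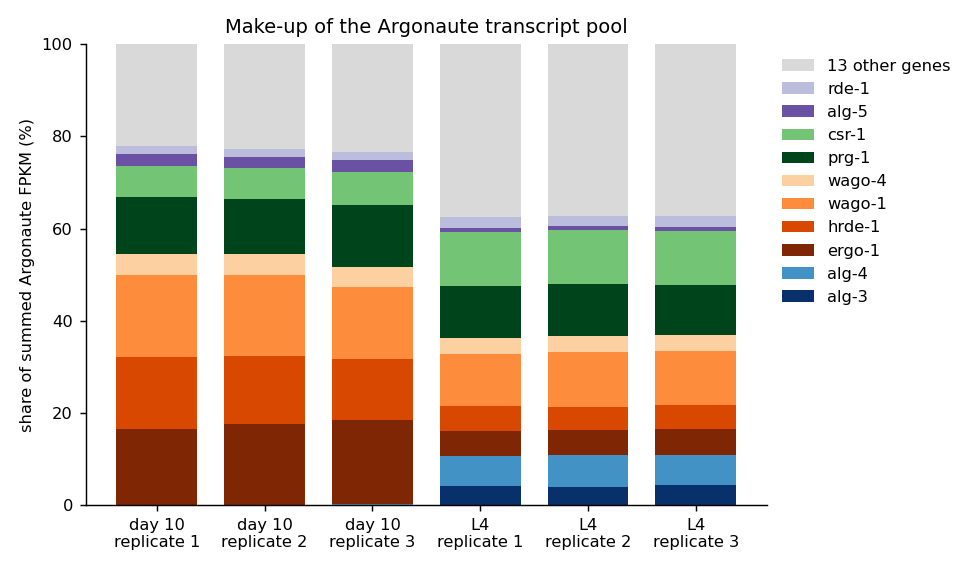
Share in percent of the summed FPKM of 23 Argonaute genes in each library, for the 10 genes by colour and 13 others in grey. In L4 alg-3 and alg-4 (blue, at the bottom of the bars) took 10.7% to 10.99%, and at day 10 they are too thin to see, while ergo-1 and hrde-1 widen. The lengths are those the authors used.

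A direct contrast of the sperm line with the oocyte line was made within each library, as the log2 ratio of alg-3 plus alg-4 to the sum of prg-1, hrde-1, csr-1, wago-1, wago-4 and ergo-1 in CPM. The ratio was −9.44, −9.12 and −8.44 at day 10, against −2.28, −2.27 and −2.24 in L4. Its mean was 6.74 log2 units lower at day 10. Since the genes were chosen with these data known, the contrast is a description with no test. The oocyte line here means germ line Argonautes that stay in use with oogenesis; prg-1 and csr-1 are also known from the male germ line. None of the 6 rose as much as the median oocyte marker. All 15 listed oocyte genes were higher at day 10, where 40.5% of all genes tested were. Their log2 fold changes were 2.72 to 5.52 with a median of 4.48, and ergo-1 exceeded 1 of the 15 while the other 5 exceeded none. The eggshell gene cpg-2 averaged 3251 ± 762 CPM at day 10 and 146 ± 6.15 in L4, and cbd-1 2496 ± 422 and 95.8 ± 11.96 CPM.

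Transcripts that mark the germ line were mostly higher at day 10. Of 12 general germ line markers, 10 rose, 1 fell and 1 did not pass, where 40.5% of all genes tested rose and 45% fell. The markers had a median log2 fold change of 1.03. Their summed level was 3273 to 3874 CPM at day 10 and 1814 to 1836 CPM in L4. The germ line regulator gld-1 averaged 1163 ± 98.4 CPM at day 10 and 363 ± 9.73 in L4, while the granule helicase glh-1 averaged 479 ± 30.3 and 607 ± 3.999 CPM, a fall. Housekeeping genes moved too: all 6 listed rose, with a median of 1.00, tba-1 to 956 ± 37.9 CPM at day 10, against 485 ± 13.9 in L4, and ama-1 to 633 ± 57.6, against 290.1 ± 18.8.

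Set against the germ line markers of the same library, the 8 genes that rose did not move alike. On this scale (log2 CPM minus the mean of the 12 markers) ergo-1, hrde-1 and alg-5 were higher at day 10 by 1.43, 1.24 and 1.14. Smaller differences of 0.33 for wago-1 and 0.16 for wago-4 also kept the libraries of the ages apart. In CPM the libraries of 87.6% of all genes tested did not overlap. The share on the marker scale is not given, so separation alone says little of these genes. The gene prg-1 stood at 1.45, 1.47 and 1.59 at day 10, against 1.56, 1.61 and 1.52 in L4, which overlap. It rose more than 7 of the 12 markers. The mean of the markers is pulled by nos-2, a maternal regulator of germ cells, which had a log2 fold change of 5.17 where the median of the 12 was 1.03. Without nos-2, a choice made after its values were seen, prg-1 stood at 1.41, 1.42 and 1.51 at day 10, against 1.18, 1.22 and 1.13 in L4, and no longer overlapped. The differences then were 1.76 for ergo-1, 1.58 for hrde-1, 1.47 for alg-5, 0.66 for wago-1 and 0.49 for wago-4.

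Lower at day 10 on this scale were csr-1 and rde-1. For csr-1 the values were 0.89, 0.96 and 0.99 at day 10, against 1.92, 1.96 and 1.92 in L4, and for rde-1 −0.96, −0.99 and −1.05, against −0.37, −0.52 and −0.44. With housekeeping genes in place of germ line markers, the difference was −0.69 for csr-1 and −0.26 for rde-1, whose libraries then overlapped, and 0.24 for prg-1, whose libraries did not. Without nos-2 among the germ line markers, it was −0.65 for csr-1 and −0.22 for rde-1, and the libraries of neither overlapped. The genes alg-3 and alg-4 were lower by 6.13 and 6.31 against germ line markers.

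**Figure D4:**
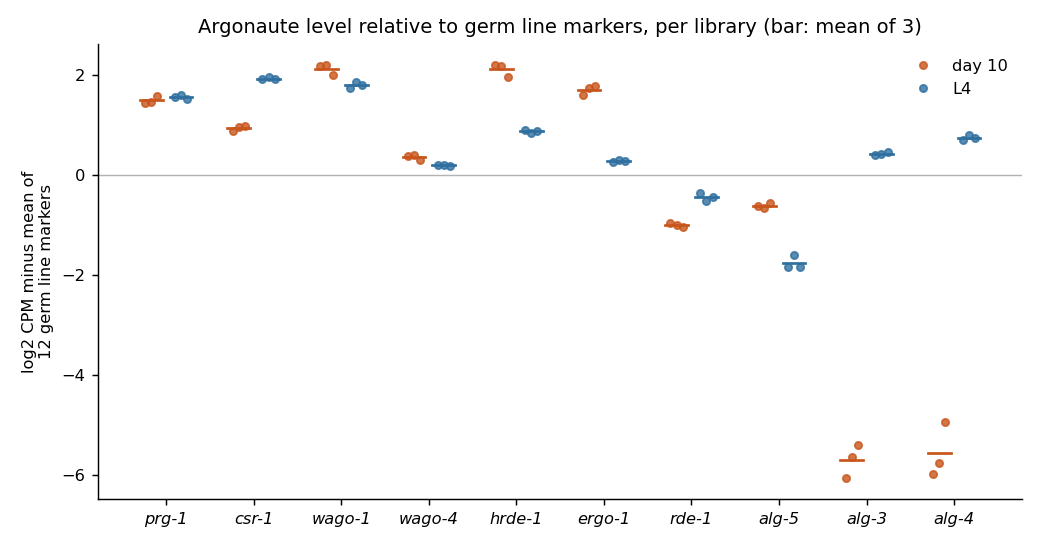
Level of each gene as log2 CPM minus the mean of 12 germ line markers in the same library, with points for 3 day 10 and 3 L4 libraries and bars for means. For ergo-1, hrde-1 and alg-5 day 10 lies above L4, for prg-1 the ages overlap (not so without nos-2 among the markers), and for csr-1, rde-1, alg-3 and alg-4 day 10 lies below.

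Day 10 replicate 3 was lower than the mean of replicates 1 and 2 for all 8 genes that rose and higher for both that fell. On the log2 scale the difference was −0.42 for hrde-1, −0.39 for wago-1, −0.29 for wago-4 and −0.27 for rde-1, and between −0.13 and −0.07 for csr-1, alg-5, ergo-1 and prg-1. It was 0.26 for alg-3, 0.73 for alg-4 and 0.81 for wago-10. In the same library the median over the oocyte markers was −0.47 and over the sperm markers 0.27, and over the intestinal markers it was −0.66, where that of all genes tested was 0.01. The part of these markers in the differences among day 10 libraries was not tested.

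The partners of these Argonautes mostly rose. All 15 listed factors of 22G-RNA amplification were higher at day 10, with a median log2 fold change of 1.30, among them rde-12, a helicase (314 ± 9.47 CPM at day 10 and 204 ± 9.10 in L4), and mut-16, which builds the mutator foci (205 ± 8.04 and 72.4 ± 1.04 CPM). All 10 listed factors of 26G-RNA production were higher too, with a median of 1.14, including the nuclease dcr-1 (240 ± 8.19 CPM at day 10 and 114 ± 3.91 in L4) and its double-stranded RNA binding partner rde-4 (166 ± 15.9 and 36.9 ± 2.87 CPM). Over all genes tested 40.5% were higher, with a median of −0.16, so these lists stood above it, though housekeeping genes had a median of 1.00.

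Of 14 listed factors of piRNA transcription and processing, 12 were higher and 2, prde-1 and parn-1, did not pass, with a median of 1.32. Over all genes tested 40.5% were higher, and the housekeeping median was 1.00. The gene henn-1 is also on the list of 26G-RNA factors. The gene snpc-4, which drives piRNA transcription, averaged 183 ± 4.67 CPM at day 10 and 81.1 ± 2.11 in L4. The highest on the list, trcs-1 (546 ± 74.6 CPM at day 10 and 39.4 ± 3.33 in L4), encodes a lipase-like protein and had been listed in error; without it 11 of 13 were higher, with a median of 1.32.

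Of 13 other factors of nuclear RNA interference and inheritance, 11 were higher and 2 did not pass, with a median of 1.28. The share higher over all genes tested was 40.5%, and housekeeping genes had a median of 1.00. The helicase emb-4 averaged 295 ± 9.81 CPM at day 10 and 153 ± 11.7 in L4. The nuclear silencing factor nrde-2 did not pass, at 149 ± 12.97 and 151 ± 6.33 CPM (adjusted p = 0.84), and nor did znfx-1, the helicase that marks Z granules with WAGO-4, at 120 ± 3.48 and 131 ± 3.78 CPM (adjusted p = 0.0557). Both were lower with upper-quartile factors, where 10 of the list were higher and 2 lower.

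Of 10 listed P granule proteins, 9 were higher and 1, glh-1, lower, with a median of 1.62. Again 40.5% of all genes tested were higher, and the housekeeping median was 1.00. The genes pgl-1, pgl-3 and glh-1 are also among the general germ line markers. The gene pgl-1, which encodes a scaffold protein of the granules, averaged 614 ± 56.5 CPM at day 10 and 336 ± 3.82 in L4. Transcripts known as sources of ERGO-1 guides were scarce. Of 4, 2 were higher, E01G4.5 and W04B5.1, and 1, K02E2.6, lower. E01G4.5 averaged 8.54 ± 1.02 CPM at day 10 and 2.17 ± 0.20 in L4, and K02E2.6 averaged 3.47 ± 0.47 and 5.20 ± 0.38 CPM. The call of E01G4.5 held in all 15 alternatives. That of W04B5.1 was lost in 5, among them leaving out day 10 replicate 1 (adjusted p = 0.0605), L4 replicate 1 (0.0911) or L4 replicate 3 (0.064), and the replicate block (0.052). That of K02E2.6 was lost in 4, among them leaving out L4 replicate 2 (adjusted p = 0.0588) or L4 replicate 3 (0.0544).

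**Figure D5:**
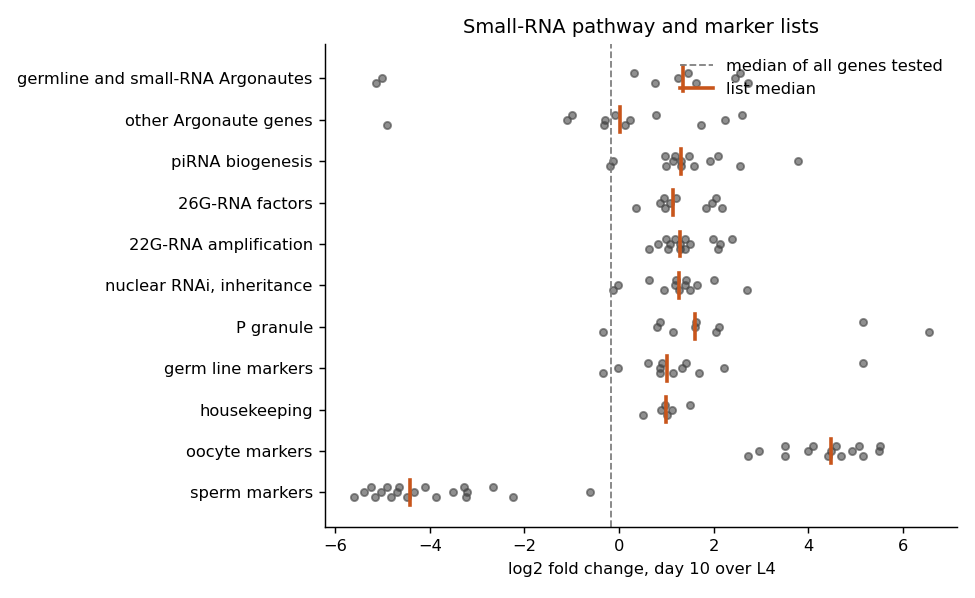
Log2 fold change, day 10 over L4, of each tested gene in small-RNA pathway lists and in marker lists, with orange bars for list medians and a dashed line at the median of all genes tested, −0.16. Medians of the lists of partners lie between 1.14 and 1.62, near the housekeeping median of 1.00, while oocyte and sperm markers lie at 4.48 and −4.41. The median of the other Argonaute genes lies at 0.02, and the ERGO-1 sources are not shown.

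Markers of other cells in whole animals moved as well. All 8 muscle markers and 7 of 8 epidermal markers were lower at day 10, with medians of −4.72 and −7.16. Intestinal and neuronal markers each had 2 higher and 6 lower of 8, with medians of −2.30 and −1.75. For comparison, 45% of all genes tested were lower and 40.5% higher. Of 12 markers of early embryos, 7 passed the filter, mostly through day 10, and 6 of these were higher and 1, elt-7, lower; 3 of the 12 were at 0 counts in L4, tbx-38, hlh-27 and pes-10. Without elt-7, they summed to 48.3 to 68.2 CPM at day 10 and 0.71 to 1.19 CPM in L4. The gene elt-7, which encodes an intestinal transcription factor, stood at 3.20 to 6.21 CPM at day 10 and 12.6 to 14.99 CPM in L4. The part of embryos in the rises of the Argonaute genes was not tested.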

How the data were processed

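Per the submitters' processing notes, the authors' workflow named CASAVA 1.8, HISAT2 and HTSeq; these notes state neither build, annotation, counting settings nor use of strand. The deposited table holds raw read counts per gene, and the deposited FPKM values equal those counts over 1 length per gene and the library total. The authors' deposited comparison gives group means, a signal in scaled counts, and p-values; its fold changes were not used.

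The members and lists were chosen with earlier results of these data known. Coordinates and exons are those of Ensembl release 115 (WBcel235), which may differ from the authors' build. The listed symbol cde-1 was not matched, and lists of partners leave out the 10 members.

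The test of day 10 over L4 was edgeR 4.0.16 (R 4.3.3) on the counts, with TMM scaling, its default low-count filter, the robust quasi-likelihood fit and Benjamini-Hochberg adjustment over all 15956 genes. CPM are of the TMM-scaled library, and values are mean ± SD over 3 libraries. SEs beside log2 fold changes were computed from log2(CPM + 0.5) within the ages. Tested on simulated counts for this comparison (15921 genes), the steps recovered 36% of 50 genes changed 1.5-fold, 96% changed 2-fold and 100% changed 4-fold or 8-fold, with 6 false calls. Only 200 genes were changed there, at random up or down, with the same spread setting for all genes. In the data 85.4% of genes passed, so the simulation cannot show how the steps do under so wide a change. By rule, all 10 members were named, with the 3 other Argonautes of highest mean FPKM and the 2 genes of highest mean CPM in each list of partners, sperm, oocyte, germ line and housekeeping genes. Alternatives were other scalings and filters, fits without the robust option, DESeq2 1.42.0, the replicate number as a block, removal of the 50 most abundant genes and each library left out; merged exon lengths and germ line markers without nos-2 were added after the data were seen. No pair of libraries of an age matched within sampling noise. Small RNAs were not analysed here.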

Additional observations from a re-analysis of the deposited data

How the results depend on the processing

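Each of the 10 genes kept its direction and an adjusted p under 0.05 in all 15 alternatives, except csr-1. Its log2 fold change of 0.31 turned to −0.14 with upper-quartile factors, where the median of all genes tested moved from −0.16 to −0.62. The labels do not say whether replicate numbers pair the samples. Deviations of same-numbered libraries correlated at 0.03, 0.053 and 0.001, and those of differently numbered ones at −0.047 to 0.01, which cannot settle it. When the replicate number was fitted as a block, 8 members rose and 2 fell, as without it. With the block, 6355 genes were higher and 7042 lower in all, and of the 4 ERGO-1 sources 1 was higher. With upper-quartile factors 2 genes of piRNA biogenesis, 2 of nuclear RNA interference and 2 of the ERGO-1 sources were lower, and 1 of the ERGO-1 sources was higher. With DESeq2's size factors 0 of the ERGO-1 sources were lower. DESeq2's own test gave 0 lower for these sources and 0 lower for P granule proteins. Under a filter of 1 CPM in 3 or more libraries, 1 of the nuclear list was lower. Leaving out 1 library gave 1 to 2 higher and 0 to 1 lower among the ERGO-1 sources, and 0 to 1 lower in the nuclear list. The remaining counts stayed within 1.5 times. The sperm-line contrast was −6.78 by FPKM and −7.02 to −6.52 with 1 library left out. Relative to germ line markers, 5 members were higher in every day 10 library than in every L4 library. Relative to housekeeping genes this count was 6. It was 6 too without nos-2 among the germ line markers. The share of all genes that were higher on these scales is not given, so the counts say little of the members. Low counts at day 10, 66 to 129 for alg-3 and alg-4 and 30 to 68 for wago-10, limit the precision of those values.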

Other observations

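The count table also lists 15363 loci of piRNAs, the guides that PRG-1 carries. At day 10, 297, 322 and 421 of these loci held at least 1 count, against 197, 215 and 202 in L4. Their summed counts were 586, 687 and 889 at day 10, against 437, 527 and 467 in L4, at most 0.0038% of a library. Reads of longer transcripts that cover a locus are counted in the same way, and these values say nothing of the level of piRNAs.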
